A study of Homo sapiens with 26 samples.

Results

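The mitochondrial genome encodes 7 subunits of respiratory complex I, and the results below describe the ribosome footprints on their mRNAs. The genes were taken by symbol (MT-ND1, MT-ND2, MT-ND3, MT-ND4, MT-ND4L, MT-ND5 and MT-ND6), and all 7 were found among the 19478 coding sequences of each of 4 count tables. The series holds 26 ribosome profiling libraries of 3 human cell lines and, by its title, asks what depletion of ribosomal RNA with a nuclease does to footprint counts. In all groups cells were lysed with cycloheximide and digested with RNase I, and no treatment of the living cells is labelled. Formaldehyde and oligos below are named only as parts of a depletion strategy. The HEK293T table (embryonic kidney line, fragments of 15 to 35 nt) had 2 libraries each that were undepleted or depleted with Ribo-Zero Gold, RiboCop or NEBNext. The K562 size-selection table (chronic myeloid leukaemia line) had 1 undepleted and 1 NEBNext library at each of 20 to 34 nt and 20 to 60 nt. A second K562 table (20 to 34 nt) had 2 libraries each for undepleted, FastSelect, riboPools and cold-eluted riboPools samples, and 1 library each of Ribo-Zero Plus alone, with oligos, with formaldehyde and with both. The HEK293FT table (another line of embryonic kidney origin, 15 to 35 nt) had 1 undepleted library and 1 depleted with custom oligos.

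Complex I passes electrons from NADH to ubiquinone and pumps protons across the inner mitochondrial membrane. Its core is built from subunits of both genomes: MT-ND2, MT-ND4 and MT-ND5 are the antiporter-like proton channels of the membrane arm, and MT-ND1, MT-ND3, MT-ND4L and MT-ND6 lie where that arm meets the ubiquinone site and the nuclear-encoded peripheral arm. The mRNAs are translated by mitochondrial ribosomes in the matrix, and their footprints are recovered in the same libraries as those of cytosolic ribosomes. MT-ND4L and MT-ND4 lie on 1 shared mRNA, and MT-ND6 is the only mRNA read from the other strand of the mitochondrial genome.

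All 7 transcript identifiers matched GENCODE 29 (GRCh38) with the same version. The first 30 bases of each coding sequence are shown because the starts differ between the genes, with the start codon in capitals.
MT-ND1: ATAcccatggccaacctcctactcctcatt
MT-ND2: ATTaatcccctggcccaacccgtcatctac
MT-ND3: ATAaacttcgccttaattttaataatcaac
MT-ND4: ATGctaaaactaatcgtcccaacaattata
MT-ND4L: ATGcccctcatttacataaatattatacta
MT-ND5: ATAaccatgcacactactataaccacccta
MT-ND6: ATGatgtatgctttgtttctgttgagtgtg
MT-ND4, MT-ND4L and MT-ND6 begin with ATG, MT-ND1, MT-ND3 and MT-ND5 with ATA, and MT-ND2 with ATT. The coding sequences lie at chrM:3307-4262 (MT-ND1), chrM:4470-5511 (MT-ND2), chrM:10059-10404 (MT-ND3), chrM:10470-10766 (MT-ND4L), chrM:10760-12137 (MT-ND4), chrM:12337-14148 (MT-ND5) and, on the minus strand, chrM:14149-14673 (MT-ND6). They are 956, 1042, 346, 297, 1378, 1812 and 525 nt long in that order. MT-ND3 had the lowest GC content of the 7 (40.2%), and the others lay between 42.7% and 47.7%. MT-ND6 stood apart in base composition, with 35.6% G against 9.5% to 12.1% in the other 6 and 55.2% purines against 40.1% to 41.0%.

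MT-ND4L and MT-ND4 overlap by 7 bases (chrM:10760-10766), which are 2.36% of the MT-ND4L coding sequence. The last 30 bases of the first and the first 30 of the second are shown with those bases in capitals.
MT-ND4L end: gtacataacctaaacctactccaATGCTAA
MT-ND4 start: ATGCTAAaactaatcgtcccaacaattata
How reads in this overlap were divided is not given in the sources used here. The same holds for reads that also match nuclear copies of mitochondrial sequence and for the strand used in counting, which bears on MT-ND6 most.

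The smallest library held 46858 counts on coding sequences and the largest 5795774. The lines carried their markers: all 10 K562 markers had counts in both K562 tables (4868 to 14205 CPM in sum), while 2 of 10 had counts in HEK293T and 5 of 10 in HEK293FT, and the haemoglobin genes HBG1, HBG2 and HBE1 and the erythroid factor GATA1 were at 0 in both. All 7 markers of HEK293 lines had counts in HEK293T (383 to 730 CPM in sum) and HEK293FT (311 to 328 CPM), against at most 60.1 CPM in K562. Of these, LIN28B did not separate the lines. It ranged from 0 to 60.0 CPM in the K562 kit table and from 0 to 60.1 CPM in the size-selection table. In HEK293T it had 25.0 to 39.1 CPM and in HEK293FT 28.2 to 33.3 CPM. PAX2 and LHX1 were low in HEK293T, each from 0 to 8.33 CPM. Replicate pairs differed by 1.03 to 1.21 times the sampling variance (chi-square per degree of freedom) in the 8 pairs. For RiboCop the chi-square test found no difference (p 0.103), but its totals of 156200 and 290502 counts differ, and it was kept as 2 libraries. The labels do not say that replicates came from separate cultures, so p-values measure only the spread between these libraries.

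Footprints on the 7 genes took a small and variable share of the undepleted libraries. They made up 0.0883% and 0.0945% of the counts in HEK293T, 0.252% in HEK293FT, 0.654% and 0.667% in the K562 kit table and 0.883% and 0.939% in the K562 size-selection table. The highest share was thus 10.6 times the lowest, and K562 libraries lay above HEK293FT, which lay above HEK293T, with no overlap. The 37 nuclear-encoded subunits of the same complex took a nearly constant amount, between 5783 and 6497 CPM in sum (a 1.12-fold range). Cell line, experiment and size selection differ together between tables and cannot be told apart. Each library comes from a single line, and a bulk share does not show how its cells differ.

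**Figure D1:**
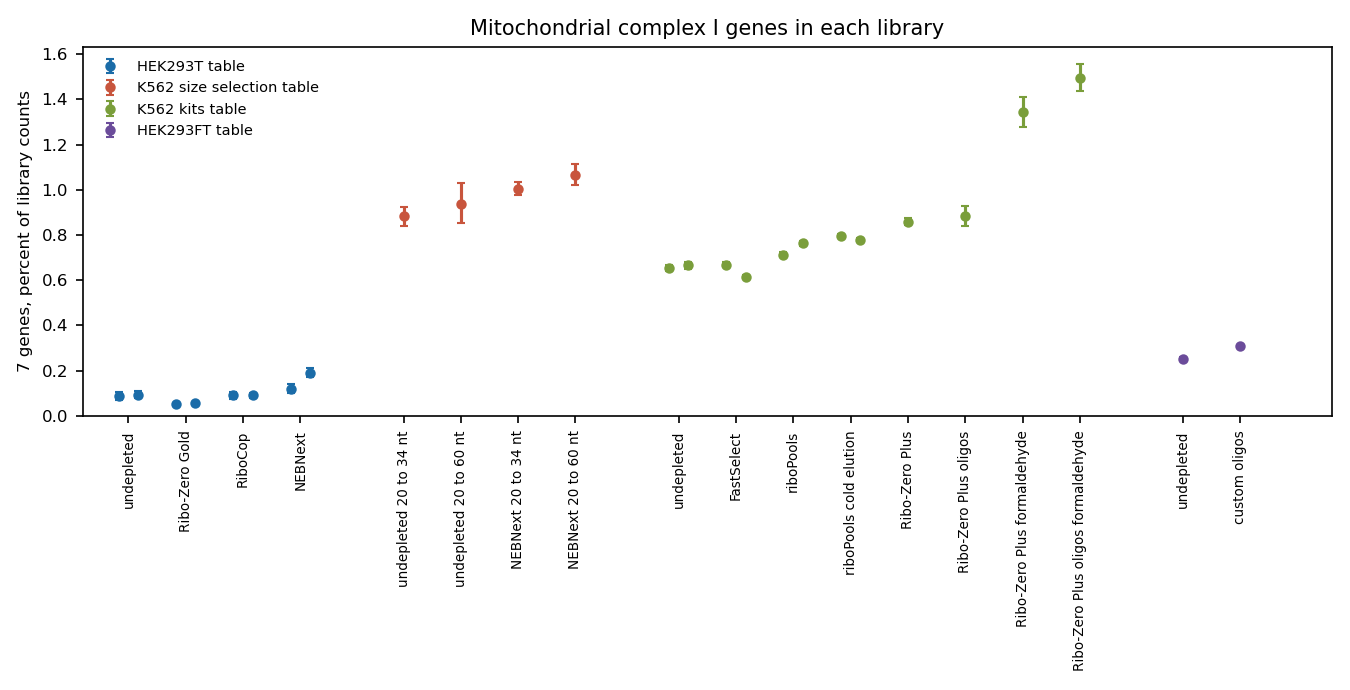
Share of each library's counts on the 7 mitochondrial complex I genes (percent, vertical axis) by library, with exact binomial 95% intervals that cover counting error only; libraries are grouped by table and treatment, and paired points are replicates. HEK293T libraries lie between 0.0507% and 0.192%, and K562 libraries between 0.616% and 1.5%.

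Per length of coding sequence, the order of the genes differed between the lines. Levels here are CPM (counts scaled to a common library total) per kilobase, RPKM, in undepleted libraries. In the K562 kit table the order was MT-ND3 (2078 ± 23.6, SD, n = 2), MT-ND4L (1750 ± 37.8), MT-ND4 (1295 ± 14.1), MT-ND5 (1133 ± 28.3), MT-ND2 (895 ± 16.7), MT-ND1 (415 ± 2.77) and MT-ND6 (384 ± 37.1). No neighbours in that order had overlapping libraries, and the top gene was 5.42-fold above the bottom one. The K562 size-selection table also began with MT-ND3 (3099 and 3762 RPKM), and there MT-ND4L overlapped MT-ND4, and MT-ND2 overlapped MT-ND6.

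HEK293FT shared the top of the K562 order, with MT-ND3 at 1052 and MT-ND4L at 591 RPKM in the single undepleted library. MT-ND4, which followed these in K562, was the lowest of the 7 there at 242 RPKM. In HEK293T the order began with MT-ND5 (236 ± 21.9 RPKM), MT-ND6 (194 ± 63.01) and MT-ND4 (133 ± 25.8) and ended with MT-ND3 (12.04 ± 17.03), with MT-ND5 overlapping MT-ND6, and MT-ND6 overlapping MT-ND4, between libraries. Thus the gene with the highest level per length in undepleted K562 and HEK293FT had the lowest in undepleted HEK293T, from 1 and 0 counts. In the depleted HEK293T groups MT-ND3 was not the lowest. Its mean was 65.8 RPKM with Ribo-Zero Gold (MT-ND2 39.6), 115 with RiboCop (MT-ND2 68.2) and 180 with NEBNext (MT-ND6 104).

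**Figure D2:**
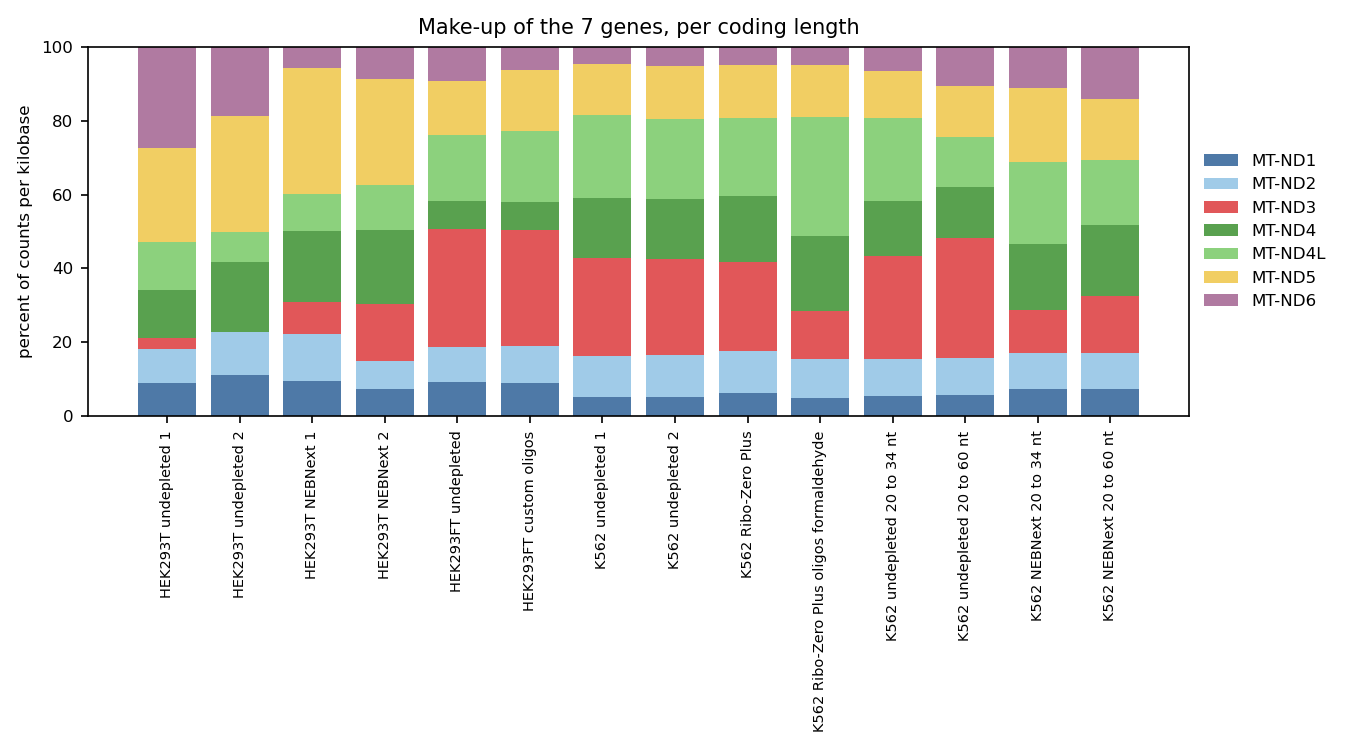
Share of each gene in the summed counts per kilobase of the 7 genes (percent, stacked bars from 0 to 100) in 14 libraries, with replicates numbered where a group has more than 1. MT-ND3 takes 24.0% to 32.4% in the undepleted K562 and HEK293FT libraries and the Ribo-Zero Plus library, and 2.77% and 0% in undepleted HEK293T.

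The antiporter-like subunits took most of the counts in each line. In undepleted K562 (kit table) MT-ND5, the outermost channel, had 2016 and 2088 CPM, MT-ND4 had 1770 and 1798 CPM, and MT-ND2 had 920 and 945 CPM. In undepleted HEK293T the same genes had 400 and 456 CPM (MT-ND5), 158 and 209 CPM (MT-ND4) and 83.3 and 97.7 CPM (MT-ND2). The K562 means were thus 4.79, 9.73 and 10.3 times those of HEK293T, and every K562 library was above every HEK293T library. In HEK293FT these genes had 876, 333 and 326 CPM, which lies between the other lines for each.

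Among the subunits near the ubiquinone site, MT-ND1 had 395 and 398 CPM in undepleted K562, 284 CPM in HEK293FT and 75.0 and 84.7 CPM in HEK293T. MT-ND4L, the shortest subunit, had 528 and 512 CPM, 175 CPM, and 33.3 and 19.5 CPM, a K562 mean 19.7 times that of HEK293T, where it rests on 4 and 3 counts. MT-ND6 had 188 and 215 CPM in undepleted K562 of the kit table, 157 CPM in HEK293FT and 125 and 78.2 CPM in HEK293T, a K562 mean 1.98 times that of HEK293T. The undepleted K562 libraries of the size-selection table had 378 and 640 CPM, so the ratio depends on the table. No test was made between lines.

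MT-ND3, whose loop lies beside the ubiquinone site, had 725 and 713 CPM in undepleted K562 and 364 CPM in HEK293FT. In undepleted HEK293T it had 1 count among 120019 (8.33 CPM) and 0 among 153462, which allows up to 19.5 CPM. Pooled over replicates, K562 was 197-fold above HEK293T (95% counting interval 35.3 to 7775, from 1559 counts against 1) and HEK293FT 99.6-fold (17.7 to 3945, from 328 counts against 1). The library with 0 counts had 145 counts on the other 6 genes, so MT-ND3 stood at 0 of 145, an upper 95% limit of 2.51%.

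**Figure D3:**
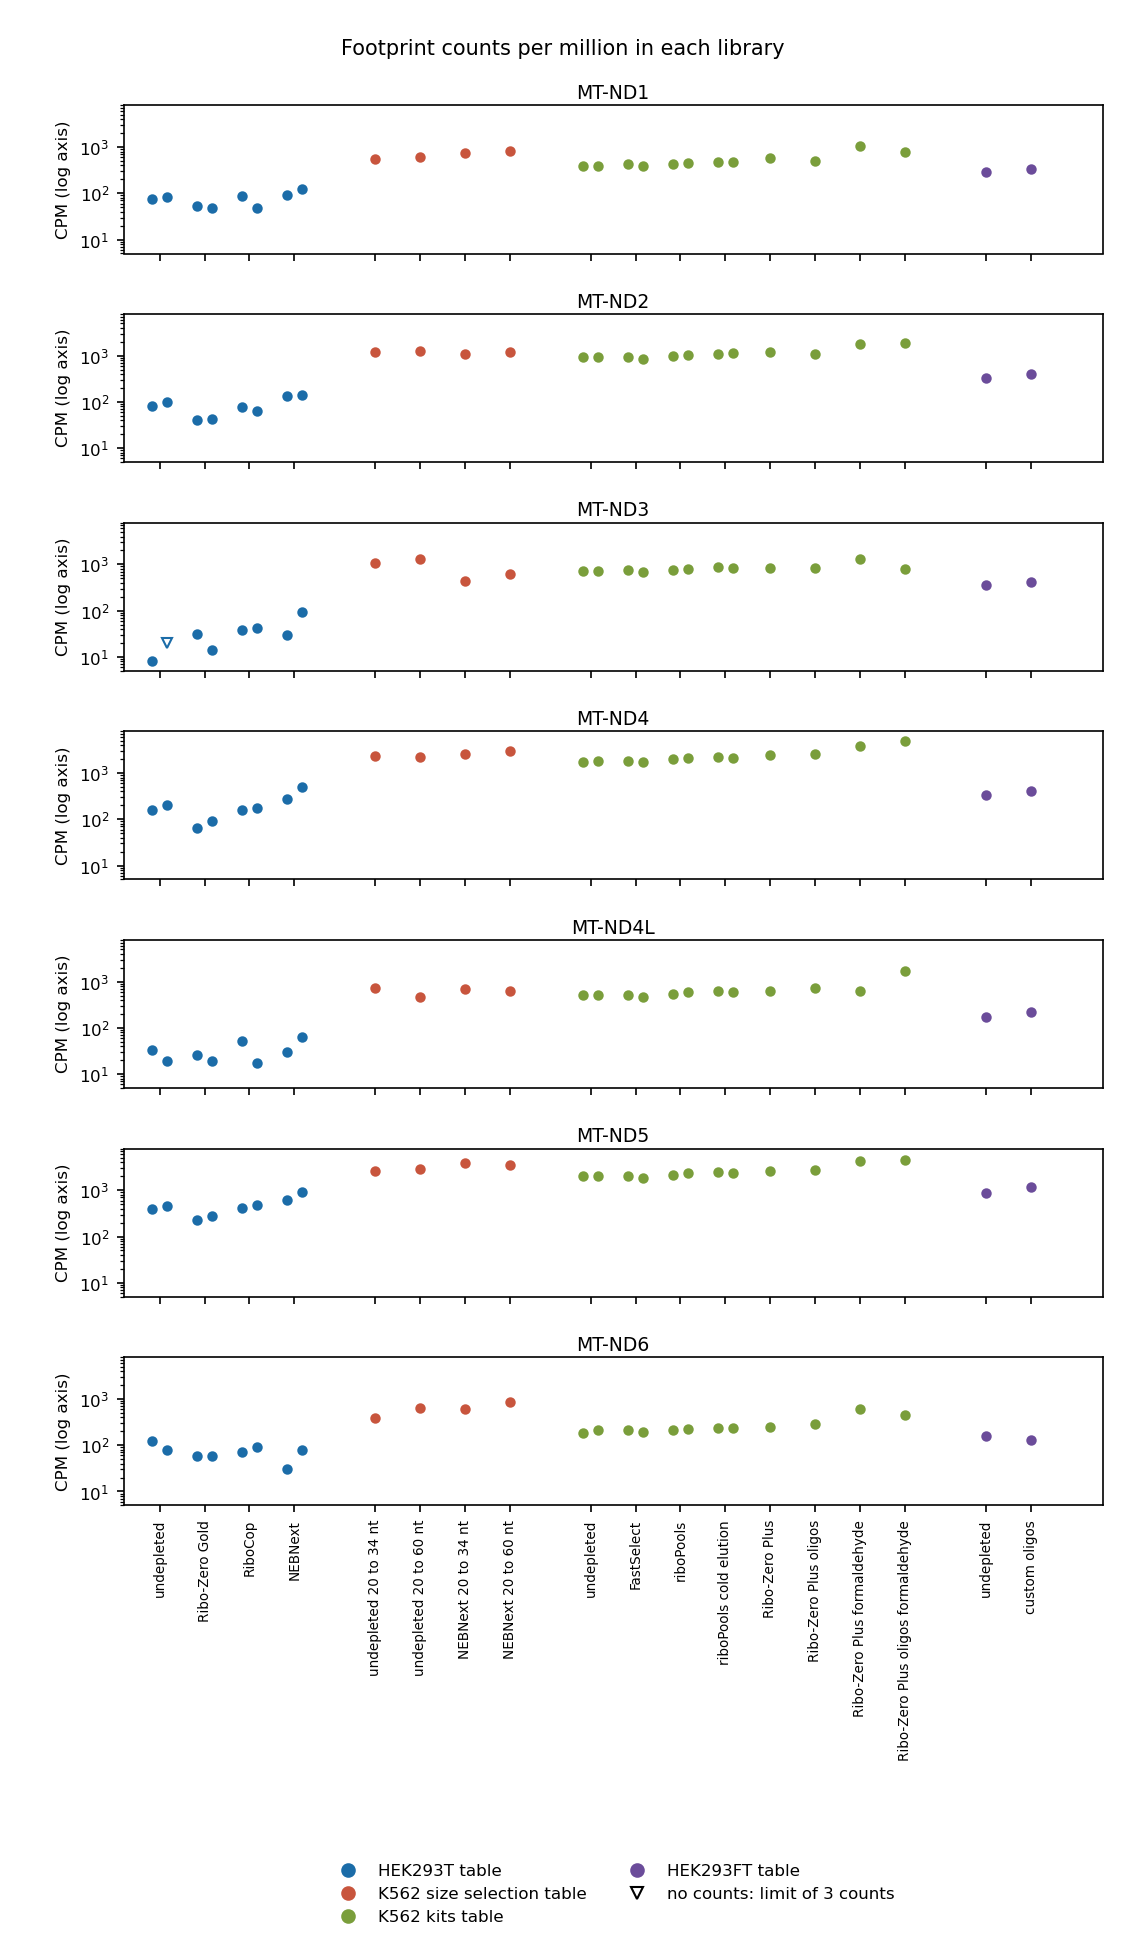
CPM of each gene (log axis) in all 26 libraries, 1 panel per gene, grouped by table and treatment; paired points are replicates, and the open triangle marks the 3-count limit where there were no counts. MT-ND3 lies between 14.2 and 94.5 CPM in the depleted HEK293T libraries and between 428 and 1302 CPM in K562.

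NEBNext, which digests ribosomal RNA bound to DNA probes with RNase H, went with higher counts on MT-ND4 and MT-ND5 in HEK293T. MT-ND4 had 158 and 209 CPM undepleted and 270 and 492 CPM with NEBNext. MT-ND5 had 400 and 456 CPM undepleted and 623 and 925 CPM with NEBNext. Both NEBNext libraries were above both undepleted libraries for each gene, and the second NEBNext library was the higher one. The log2 fold changes were 1.12 ± 0.24 (SE, 2.17-fold, edgeR adjusted p 0.000245) for MT-ND4 and 0.91 ± 0.17 (1.88-fold, edgeR adjusted p 8.55e-06) for MT-ND5.

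These were 2 of the 5 genes tested, beside 3.24% of the 4410 genes tested in all (1.5% higher and 1.75% lower). MT-ND1 (0.47 ± 0.40), MT-ND2 (0.60 ± 0.37) and MT-ND6 (-0.71 ± 0.44 on the log2 scale) did not pass, and MT-ND3 and MT-ND4L had too few counts for the edgeR filter. With no filter both were tested and MT-ND3 was called too (edgeR adjusted p 0.00177), from 1 and 0 undepleted counts. Neither call held without the second NEBNext library, where MT-ND4 had 0.54 and MT-ND5 had 0.53 on the log2 scale (edgeR adjusted p 0.570 and 0.309). The MT-ND4 call was also lost without the first undepleted library (0.95, edgeR adjusted p 0.0518) and with DESeq2 (1.08, DESeq2 adjusted p 0.0792).

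MT-ND3 had counts in every depleted HEK293T library. It had 31.3 and 14.2 CPM with Ribo-Zero Gold (11 and 6 counts), 38.4 and 41.3 CPM with RiboCop (6 and 12 counts) and 30.003 and 94.5 CPM with NEBNext (4 and 19 counts). All 6 lay above the 8.33 and 0 CPM of the undepleted libraries, but the limit of 19.5 CPM for the library without counts exceeds the lower Ribo-Zero Gold value. The 8.33 CPM rests on 1 count. MT-ND3 was 0.943% of the 7 genes' counts in that library (exact 95% binomial interval 0.0239% to 5.14%). Its share ran from 2.48% to 6.18% in the depleted HEK293T libraries. Pooled ratios to undepleted were 6.02 (95% counting interval 0.943 to 251) for Ribo-Zero Gold, 11.0 (1.74 to 459) for RiboCop and 18.8 (3.05 to 775) for NEBNext, each resting on 1 undepleted count. MT-ND4L had pooled ratios of 0.859 (0.339 to 2.45), 1.14 (0.422 to 3.37) and 1.99 (0.783 to 5.67).

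With Ribo-Zero Gold, which captures ribosomal RNA on beads, MT-ND4 fell. It had 65.5 and 92.5 CPM, both below the undepleted 158 and 209 CPM (log2 fold change -1.21 ± 0.29, 0.431-fold, edgeR adjusted p 0.039). It was the only gene called of the 5 tested, beside 0.068% of all genes tested (3 genes, all lower). The other 4 also had negative values: MT-ND2 -1.13 ± 0.41, MT-ND5 -0.74 ± 0.18 (edgeR adjusted p 0.0598), MT-ND6 -0.73 ± 0.37 and MT-ND1 -0.67 ± 0.41. The MT-ND4 call was lost when any 1 of the 4 libraries was left out (log2 fold changes of -1.503 to -0.96), with no filter on low counts (-1.14, edgeR adjusted p 0.288) and with DESeq2.

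RiboCop, another bead kit, left no gene of the 5 called by edgeR, with 0 at an unadjusted p under 0.05 and 0 by DESeq2, beside 0% of all genes tested. Estimates ran from -0.40 ± 0.40 (MT-ND2) to 0.09 ± 0.18 (MT-ND5) on the log2 scale. Differences of the size of the SE, 0.18 to 0.43, were not detectable at this depth.

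NEBNext was also set against the other kits of the HEK293T table. Against Ribo-Zero Gold, 4 of 5 rose, beside 4.15% of all genes tested (2.31% higher and 1.84% lower): MT-ND4 by 2.33 ± 0.22, MT-ND2 by 1.74 ± 0.34, MT-ND5 by 1.65 ± 0.15 and MT-ND1 by 1.14 ± 0.35 on the log2 scale (edgeR adjusted p 9.23e-23, 4.31e-05, 8.92e-26 and 0.0334). MT-ND6 had 0.02 ± 0.40. Against RiboCop, 2 of 5 rose, beside 5.1% of all genes (2.65% higher and 2.45% lower): MT-ND4 by 1.28 ± 0.21 and MT-ND5 by 0.82 ± 0.15 (edgeR adjusted p 5.52e-07 and 3.16e-06). MT-ND2 (2.0-fold), MT-ND1 (0.83 on the log2 scale) and MT-ND6 (-0.44) did not pass, with edgeR adjusted p of 0.0642, 0.222 and 0.644. Without the second NEBNext library both calls against RiboCop were lost (0.69 and 0.44), and the MT-ND1 call against Ribo-Zero Gold was lost without that library or either Ribo-Zero Gold library (0.83 to 1.21) and with no filter on low counts (1.08). DESeq2 called 2 of the genes against Ribo-Zero Gold and 2 against RiboCop. These comparisons share the NEBNext libraries with the one against undepleted.

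**Figure D4:**
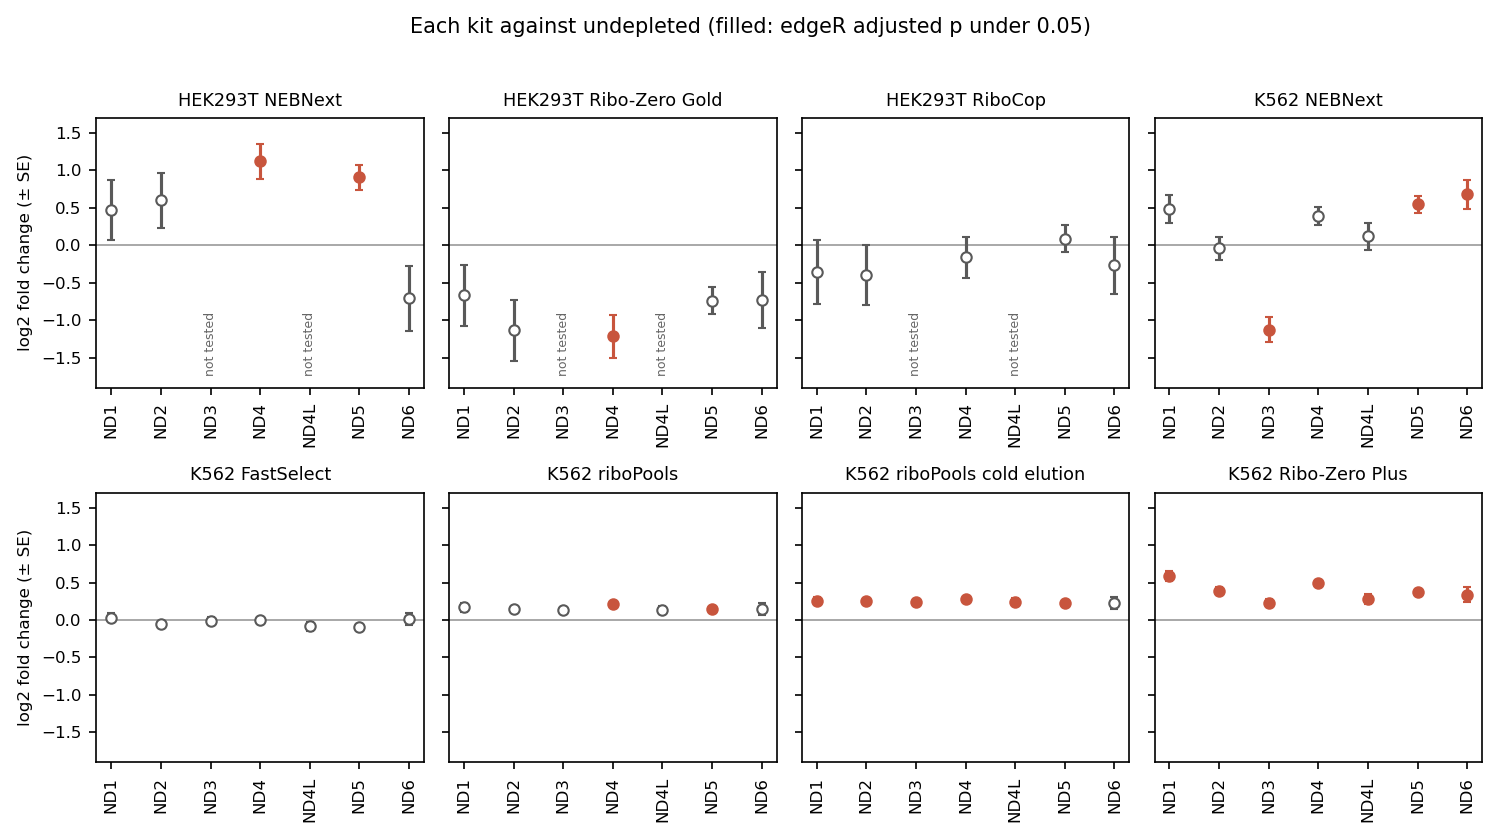
Log2 fold change of each gene against undepleted (points, with SE bars) for 8 comparisons of a kit in a cell line, from the edgeR fits. Filled points have an adjusted p under 0.05. MT-ND3 and MT-ND4L were not tested in HEK293T and have no point there. MT-ND3 in K562 with NEBNext, at -1.13, is the only filled point below 0 apart from MT-ND4 with Ribo-Zero Gold in HEK293T, at -1.21.

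In K562, MT-ND3 fell with NEBNext, and MT-ND5 and MT-ND6 rose. MT-ND3 had 1072 CPM undepleted against 428 CPM with NEBNext at 20 to 34 nt, and 1302 against 631 CPM at 20 to 60 nt. MT-ND5 had 2576 against 3878 CPM and 2902 against 3510 CPM, and MT-ND6 had 378 against 612 CPM and 640 against 856 CPM. For MT-ND3 and MT-ND5 the NEBNext and undepleted libraries did not overlap, whereas for MT-ND6 the NEBNext library at 20 to 34 nt was below the undepleted one at 20 to 60 nt. The log2 fold changes were -1.13 ± 0.17 (0.458-fold) for MT-ND3, 0.55 ± 0.11 (1.47-fold) for MT-ND5 and 0.68 ± 0.20 (1.60-fold) for MT-ND6, with edgeR adjusted p of 1.74e-08, 0.000239 and 0.0307.

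These 3 of 7 stand beside 2.16% of the 4625 genes tested (1.62% higher and 0.541% lower). Of all called genes 75 rose and 25 fell, and with total-count scaling 40 and 40. The other 4 genes had log2 fold changes of 0.49 ± 0.18 (MT-ND1), 0.39 ± 0.12 (MT-ND4, edgeR adjusted p 0.0543), 0.12 ± 0.18 (MT-ND4L) and -0.04 ± 0.15 (MT-ND2). The size pairs gave MT-ND3 -1.25 (95% counting interval -1.54 to -0.96) at 20 to 34 nt and -0.93 (-1.39 to -0.47) at 20 to 60 nt. They gave MT-ND5 0.67 (0.52 to 0.81) and 0.38 (0.12 to 0.66), and MT-ND6 0.77 (0.39 to 1.16) and 0.53 (-0.04 to 1.14). Only 1 residual degree of freedom remains in this fit. The undepleted libraries of this table also carry a label naming NEBNext and were grouped by their titles. The MT-ND6 call was lost with total-count scaling (0.59, edgeR adjusted p 0.102) and with DESeq2 size factors (0.67, edgeR adjusted p 0.0519). The MT-ND5 call was lost with DESeq2 (0.52, DESeq2 adjusted p 0.0585), which called 1 of the 7 in this comparison.

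The share of MT-ND3 among the 7 genes shows the same difference without any scaling between libraries. It was 12.2% (exact 95% binomial interval 10.6% to 13.8%) undepleted and 4.26% (3.69% to 4.90%) with NEBNext at 20 to 34 nt. At 20 to 60 nt it was 13.9% (10.8% to 17.4%) and 5.91% (4.95% to 7.0%). The intervals of the NEBNext and undepleted libraries did not overlap at either size. For every 100 counts on the other 6 genes there were 13.8 and 16.1 on MT-ND3 undepleted, and 4.45 and 6.28 with NEBNext.

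**Figure D5:**
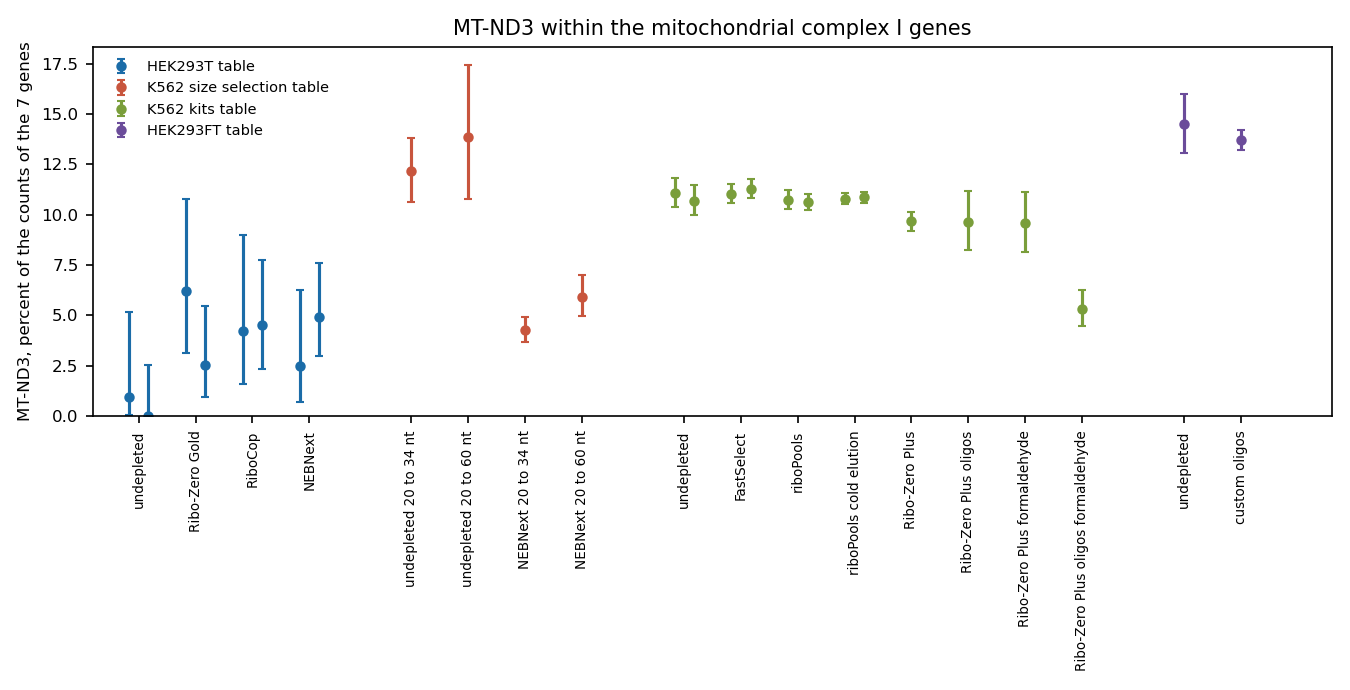
MT-ND3 as a percent of the counts on the 7 genes (vertical axis) in each library, with exact binomial 95% intervals for counting error; libraries are grouped by table and treatment. The 2 K562 NEBNext libraries (4.26% and 5.91%) and the Ribo-Zero Plus library with oligos and formaldehyde (5.30%) lie below all other K562 libraries (9.56% to 13.9%).

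In both K562 tables the 7 genes were close in their share of all mitochondrial footprints, except with NEBNext. They took 36.1% and 35.5% of the counts on the 13 mitochondrial coding sequences in the undepleted libraries of the size-selection table. In the 12 libraries of the kit table they took 34.1% to 36.0%. With NEBNext the share was 27.3% and 30.6%. The other 6 mitochondrial coding sequences encode subunits of cytochrome c oxidase, ATP synthase and cytochrome b. With NEBNext 5 of them rose, beside 1.62% of all genes tested. They were led by MT-ATP8 (1.75 ± 0.13) and MT-CO2 (1.27 ± 0.11) on the log2 scale (edgeR adjusted p 1.26e-35 and 7.92e-26). In HEK293T the share of the 7 genes was 21.5% and 21.0% undepleted and 24.0% and 26.6% with NEBNext.

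The NEBNext effects of the tables were compared in 1 fit with an interaction term over 5718 genes. MT-ND3 did not pass the filter within the HEK293T table, and it entered this fit with the K562 libraries. It was called, at -5.07 ± 0.86 on the log2 scale (K562 minus HEK293T, edgeR adjusted p 8.42e-06), beside 0.315% of all genes tested (0.21% higher and 0.105% lower in K562). All genes called were 12 and 6, and 8 and 10 with total-count scaling. The HEK293T side of the MT-ND3 value is 4 and 19 NEBNext counts against 1 and 0 undepleted counts, so the fitted value is no measure of the size of a difference. Without the second HEK293T NEBNext library the call was lost (-3.91, edgeR adjusted p 0.377). The other 6 were not called and ranged from -0.83 ± 0.66 (MT-ND4L) to 1.45 ± 0.48 (MT-ND6, edgeR adjusted p 0.237). Among the other 6 mitochondrial coding sequences, MT-CO2 differed (0.95 ± 0.24, edgeR adjusted p 0.022). Cell line, experiment and size selection cannot be told apart in this comparison.

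Fragments of 20 to 60 nt against 20 to 34 nt in K562 left none of the 7 called by edgeR, beside 0.108% of all genes tested (0.0432% higher and 0.0649% lower). At an unadjusted p under 0.05 there were 2, MT-ND6 (0.52 ± 0.19, p 0.00529 by edgeR) and MT-ND3 (0.39 ± 0.17, p 0.0236 by edgeR), and DESeq2 called 0. The other estimates lay between -0.36 ± 0.19 (MT-ND4L) and 0.10 ± 0.18 (MT-ND1).

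FastSelect, which blocks reverse transcription of ribosomal RNA, left the 7 genes within a narrow range of undepleted. None was called by edgeR (1 at an unadjusted p under 0.05, 0 by DESeq2), beside 0.0197% of the 10142 genes tested (0.00986% higher and 0.00986% lower). Log2 fold changes ran from -0.09 ± 0.03 (MT-ND5) to 0.03 ± 0.06 (MT-ND1). MT-ND3 had 739 and 695 CPM against 725 and 713 CPM undepleted (-0.01 ± 0.05). Its share of the 7 genes was 11.0% and 11.3% against 11.1% and 10.7%.

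With riboPools, a bead kit, MT-ND4 and MT-ND5 rose slightly. MT-ND4 had 1770 and 1798 CPM undepleted and 1996 and 2120 CPM with riboPools (0.21 ± 0.03, 1.16-fold, edgeR adjusted p 4e-07). MT-ND5 had 2016 and 2088 against 2156 and 2377 CPM (0.15 ± 0.03, 1.11-fold, edgeR adjusted p 0.00503). The libraries did not overlap for either gene, and the second riboPools library was the higher one. These 2 of 7 stand beside 0.0887% of all genes tested (0.0789% higher and 0.00986% lower). Both calls were lost without the second riboPools library (0.16 and 0.07), with DESeq2 and with oligos and formaldehyde as additive terms of the fit, and the MT-ND5 call was also lost without the first undepleted library (0.12, edgeR adjusted p 0.504).

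With cold elution from riboPools more of the genes were called against undepleted, while the direct comparison of the elutions, given next, called none. Of the 7, 6 rose, by 0.23 ± 0.03 (MT-ND5) to 0.28 ± 0.03 (MT-ND4) on the log2 scale, beside 0.237% of all genes tested (0.158% higher and 0.0789% lower). MT-ND3 had 859 and 846 CPM (0.24 ± 0.04, edgeR adjusted p 1.6e-05), MT-ND1 479 and 472 CPM (0.26 ± 0.05, edgeR adjusted p 0.00173) and MT-ND4L 627 and 611 CPM (0.25 ± 0.05, edgeR adjusted p 0.000376), each above both undepleted libraries. MT-ND6 had the same size of difference (0.23 ± 0.08) and did not pass (edgeR adjusted p 0.399). No gene of the 7 was called with DESeq2 or with additive terms, MT-ND1 was lost without either undepleted library (0.25 and 0.27) and MT-ND4L without the second (0.23).

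Cold elution against standard elution left none of the 7 called by edgeR, beside 0.0296% of all genes tested (0.00986% higher and 0.0197% lower), with 6 at an unadjusted p under 0.05 and 0 by DESeq2. All 7 estimates lay between 0.07 ± 0.02 (MT-ND4) and 0.11 ± 0.04 (MT-ND4L). Without the second riboPools library 1 of the 7 was called. The make-up of the 7 genes was close under all 4 paired treatments of this table: MT-ND3 took between 10.6% and 11.3% of their counts in the 8 libraries and MT-ND4 between 27.0% and 27.9% on average per group.

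Ribo-Zero Plus, the other RNase H kit, gave higher counts on all 7 genes in its single library without additions. MT-ND1 had 586 CPM (0.58 ± 0.07, 1.5-fold, edgeR adjusted p 2.48e-12), MT-ND4 2482 CPM (0.50 ± 0.04, 1.41-fold, edgeR adjusted p 1.23e-27) and MT-ND2 1203 CPM (0.39 ± 0.05, edgeR adjusted p 1.76e-10). MT-ND5 (0.37 ± 0.04), MT-ND6 (0.34 ± 0.10), MT-ND4L (0.28 ± 0.06) and MT-ND3 (0.23 ± 0.06, 830 CPM) also passed. These 7 of 7 stand beside 20.3% of all genes tested (8.97% higher and 11.4% lower). The MT-ND3 share was 9.66% (9.20% to 10.1%), below the 8 libraries of the paired treatments. The lone library is assumed to vary like the paired groups, DESeq2 called 2 of the 7 and the fit with additive terms 4, and the MT-ND6 call was lost without the first undepleted library (0.24, edgeR adjusted p 0.177).

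The 3 Ribo-Zero Plus libraries with additions had totals of 184722 (oligos), 116742 (formaldehyde) and 165153 counts (both). Among 3861 well-counted genes of the table (100 counts or more on average), 3.86%, 8.47% and 4.92% had no count in them, against at most 1 gene in any other library, and the median log2 fold changes of all genes tested were -0.64, -1.25 and -0.81. The part of this in the results below was not tested. Each treatment with additions has 1 library, and its p-values set that library against a spread taken from the paired groups. Calls over all genes also depended on scaling here: 964 rose and 2008 fell with oligos (1170 and 1565 with total-count scaling), 741 and 1863 with formaldehyde (995 and 1258), and 949 and 2103 with both (1166 and 1643).

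With oligos, 3 of the 7 were called higher in that library, beside 29.3% of all genes tested (9.51% higher and 19.8% lower): MT-ND4 (2604 CPM, 0.40 ± 0.07), MT-ND4L (742 CPM, 0.37 ± 0.14) and MT-ND5 (2793 CPM, 0.30 ± 0.07). The other 4 had values of 0.05 ± 0.11 (MT-ND2) to 0.37 ± 0.22 (MT-ND6). All of these values rest on the single library with oligos. MT-ND3 had 850 CPM and 9.62% of the 7 genes' counts.

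With formaldehyde, 6 of the 7 were called higher in that library, beside 25.7% of all genes tested (7.31% higher and 18.4% lower). MT-ND6 had 608 CPM (1.37 ± 0.21), MT-ND1 1045 CPM (1.17 ± 0.16) and MT-ND3 1285 CPM (0.60 ± 0.13). MT-ND4L, at 625 CPM, had 0.03 ± 0.18 and was not called. The MT-ND3 call was lost with additive terms (0.45, edgeR adjusted p 0.0520). The 7 genes together took 1.34% of this library.

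With oligos and formaldehyde together, again 6 of the 7 were called higher in that library, beside 30.1% of all genes tested (9.36% higher and 20.7% lower), but the uncalled gene was MT-ND3. It had 793 CPM against 725 and 713 CPM undepleted (-0.02 ± 0.13). In that library of 165153 counts MT-ND4L had 1689 CPM (1.54 ± 0.11, 2.90-fold) and MT-ND4 4880 CPM (1.29 ± 0.06). With 1 library, the SE does not hold the spread within this treatment. MT-ND3 took 5.30% of the 7 genes' counts (4.45% to 6.26%) and MT-ND4L 11.3%, where the undepleted libraries had 10.7% to 11.1% and a mean of 7.87%. Per length, MT-ND4L had 5688 and MT-ND4, on the same mRNA, 3542 RPKM, where the undepleted means were 1750 and 1295 RPKM.

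In HEK293FT, 1 library a group allows no test, and intervals are for counting error only. The ratio of custom oligos to undepleted was above 1 for 6 genes: 1.33 (95% interval 1.23 to 1.43) for MT-ND5, 1.28 (1.08 to 1.51) for MT-ND4L, 1.25 (1.11 to 1.42) for MT-ND2, 1.23 (1.09 to 1.39) for MT-ND4, 1.18 (1.04 to 1.35) for MT-ND1 and 1.16 (1.04 to 1.31) for MT-ND3. MT-ND6 was below 1, at 0.828 (0.691 to 0.999), with 157 CPM undepleted and 130 CPM with the oligos. Past a 1.25-fold difference, a limit chosen after the values were seen, were 3 of the 7, all of them higher. MT-ND2 was only just past it (1.254). Of 5221 well-counted genes (100 counts or more on average), 11.6% were past it (6.86% higher and 4.79% lower). MT-ND3 took 14.5% (13.1% to 16.0%) of the 7 genes' counts undepleted and 13.7% (13.2% to 14.2%) with the oligos.

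Of the 37 nuclear-encoded subunits of complex I, edgeR called at most 1 against undepleted with each kit other than Ribo-Zero Plus. In HEK293T with NEBNext 1 of 37 fell, beside 1.75% of all genes tested. It was the accessory subunit NDUFA3 (-1.54 ± 0.48, edgeR adjusted p 0.0424). The median of the list was -0.04 against 0.003 over all genes. With Ribo-Zero Gold and with RiboCop edgeR called 0 of 37, beside 0.068% and 0% of all genes tested. There were 2 and 2 at an unadjusted p under 0.05 and 0 by DESeq2. NEBNext against Ribo-Zero Gold called NDUFA7 higher (1.26 ± 0.25, edgeR adjusted p 6.45e-05) and NDUFB10 lower (-0.64 ± 0.20, edgeR adjusted p 0.0391). Of all genes 2.31% were higher and 1.84% lower there. Against RiboCop, NDUFA3 (-1.51 ± 0.44) and NDUFB7 (-1.33 ± 0.38) were lower (edgeR adjusted p 0.0162 for each), beside 2.45% of all genes. In K562 edgeR called 0 of the 36 tested with NEBNext (median -0.03 on the log2 scale), beside 2.16% of all genes tested. There were 6 at an unadjusted p under 0.05 and 0 by DESeq2. With FastSelect, riboPools and cold elution edgeR called 0 of 37, beside 0.0197%, 0.0887% and 0.237% of all genes tested. There were 5, 2 and 2 at an unadjusted p under 0.05 and 0 by DESeq2 (medians of 0.02, 0.04 and 0.02). With the single Ribo-Zero Plus library 6 were called higher and 3 lower of 37, beside 20.3% of all genes tested (8.97% higher and 11.4% lower), led by the accessory subunits NDUFV3 (0.70 ± 0.18) and NDUFA1 (0.65 ± 0.10) and the core subunit NDUFS8 (-0.63 ± 0.13), with edgeR adjusted p of 0.0028, 5.26e-08 and 0.000129, and DESeq2 called 0. With additions 3 were called higher and 11 lower (oligos), 1 and 8 (formaldehyde) and 6 and 10 (both), beside 29.3%, 25.7% and 30.1% of all genes.

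The other 6 mitochondrial coding sequences, of the remaining respiratory complexes and ATP synthase, were also called with several kits. In HEK293T, 2 of 6 rose with NEBNext, beside 1.5% of all genes tested. They were MT-ATP8 (0.90 ± 0.27, edgeR adjusted p 0.0282) and MT-CO3 (0.86 ± 0.13, edgeR adjusted p 3.2e-08). With Ribo-Zero Gold 1 fell, MT-CO3 (-0.63 ± 0.14, edgeR adjusted p 0.025), beside 0.068% of all genes. With RiboCop edgeR called 0 of 6 (0 at an unadjusted p under 0.05, 0 by DESeq2), beside 0% of all genes. In K562, edgeR called 0 of 6 with FastSelect (1 at an unadjusted p under 0.05, 0 by DESeq2), beside 0.0197% of all genes. With riboPools 5 of 6 rose, beside 0.0789% of all genes, and with cold elution 6, beside 0.158%. DESeq2 called 0 and 0 of these. In the single Ribo-Zero Plus library the estimates of all 6 were above 0. Median log2 fold changes of these 6 were 0.15 with riboPools, 0.23 with cold elution and 0.37 with Ribo-Zero Plus, against 0.001, 0.0003 and -0.01 over all genes.

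Across the 26 libraries, with each table's mean removed, the level of the 6 genes other than MT-ND3 was most like those of MT-CO3 (Pearson r 0.93), MT-ATP6 (0.905) and MT-CO2 (0.89) among 2688 well-counted genes. MT-ND3 itself ranked 476th against that sum (r 0.188). The genes most like MT-ND3 were TXNIP (r 0.828), which encodes a thioredoxin-binding protein, TFRC (0.784), the transferrin receptor, and DECR1 (0.731), an enzyme of mitochondrial fatty acid oxidation. Without the 8 HEK293T libraries these 3 had r of 0.202, 0.226 and -0.118, while MT-CO3, MT-ATP6 and MT-CO2 kept r of 0.93, 0.862 and 0.919 with the other 6 genes. The libraries share cell lines and depth within tables, and the correlations are descriptions only.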

How the data were processed

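Per the file headers, the tables the authors deposited hold raw counts of reads on each coding sequence, with 1 transcript per gene line and 26 libraries in 4 tables. Tables in RPM, deposited beside them, equal the CPM computed here to within rounding and were not used further. The submitters' processing notes name CASAVA 1.8, STAR and GRCh38 without roles. Annotation, strand and the handling of multiply matching reads are not given in the sources used here. Intervals and the 3-count limit cover counting error only.

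The genes, gene lists and tests were chosen with earlier results of these data known. All 7 genes are described in every comparison. Of each list the called genes are counted, and up to 4 with the largest changes may be named. Each table was tested with edgeR 4.0.16 in R 4.3.3 (quasi-likelihood test, TMM, filterByExpr with a minimum count of 10, Benjamini-Hochberg adjustment over all genes tested, adjusted p under 0.05), with a coefficient per group. For K562 NEBNext the model held depletion and size terms. The SE was taken as the size of the log2 fold change divided by the square root of F. RPKM uses GENCODE 29 coding lengths. Likeness used log2(CPM + 1) minus the mean of each table. Alternatives were DESeq2 1.42.0, other scalings and filters, additive terms, the replicate block and each library left out. Simulated data had 200 changed genes, drawn only from those with a mean of 50 counts or more. In these the HEK293T NEBNext test (4410 genes) recovered 88.7% of 2-fold changes. Of the 7 genes only MT-ND5 had that mean in HEK293T, so this share does not cover the others there. The K562 NEBNext test (4625 genes) recovered 84.9%, the riboPools test 93.5% and the Ribo-Zero Plus test 87.2% (both 10142 genes), and the interaction test (5718 genes) 61.9%. All 4-fold changes were recovered in these 5. The interaction test also uses the HEK293T libraries, where MT-ND3 had 1 and 0 undepleted counts and MT-ND4L 4 and 3. Recovery in that test at the level each of the 7 genes had in each table was not tested.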

Additional observations from a re-analysis of the deposited data

Results flagged for a closer look

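The NEBNext effect on MT-ND3 was called different between the K562 and HEK293T tables by the interaction test (-5.07 on the log2 scale, edgeR adjusted p 8.42e-06). MT-ND3 was lower with NEBNext in both K562 size pairs and had 4 and 19 counts with NEBNext against 1 and 0 undepleted in HEK293T, where it did not pass the filter on low counts. The fitted value is therefore no measure of size, and the call was lost without the second HEK293T NEBNext library (-3.91, edgeR adjusted p 0.377).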

How the results depend on the processing

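Over the 43 calls of a gene in a comparison, 389 alternative values had an adjusted p: 337 kept direction and call, 52 lost the call and 0 reversed. DESeq2 lost 16 of the 39 calls for which it gave an adjusted p. Calls for which it gave none are in none of these counts. The fit with additive terms lost 12 of 30, while fitting only both groups compared lost 0 of 39. Counts of called genes that moved under DESeq2 were 1 (NEBNext, HEK293T), 0 (Ribo-Zero Gold), 2 (NEBNext against Ribo-Zero Gold), 1 (NEBNext, K562), 0 (riboPools), 0 (cold elution) and 2 (Ribo-Zero Plus). Counts over all genes that moved by more than 1.5 times were as follows. In HEK293T, DESeq2 called 58 against 143 (NEBNext), 1 against 3 (Ribo-Zero Gold), 70 against 183 (NEBNext against Ribo-Zero Gold) and 62 against 225 (NEBNext against RiboCop), where no filter gave 1 for Ribo-Zero Gold and 145 for NEBNext against RiboCop and fitting only both groups gave 5 for Ribo-Zero Gold. In K562, DESeq2 called 19 against 100 (NEBNext), 0 against 5 (size; 3 with no filter), 1 against 2 (FastSelect), 0 against 9 (riboPools), 0 against 24 (cold elution), 1 against 3 (cold against standard elution; 5 with no filter), 33 against 2063 (Ribo-Zero Plus), 921 against 2972 (with oligos), 881 against 2604 (with formaldehyde) and 1140 against 3052 (with both). Additive terms gave 0 in the paired comparisons and 246, 728, 865 and 1880 for the Ribo-Zero Plus treatments. Leaving out 1 library gave as few as 56, 1, 60 and 72 genes in those HEK293T comparisons, 1 for FastSelect, 2 for riboPools, 1252 for Ribo-Zero Plus and 13 for cold elution, up to 1 for RiboCop and 6 for cold against standard elution, and 4 to 31 for the interaction. For the 7 genes additive terms gave 0 (riboPools), 0 (cold elution) and 4 (Ribo-Zero Plus). For Ribo-Zero Gold no filter gave 0 and fitting only both groups gave 2. Leaving out 1 library gave 0 to 3 genes for NEBNext in HEK293T, 0 to 0 for Ribo-Zero Gold, 0 to 2 for NEBNext against RiboCop, 0 to 2 for riboPools, 0 to 1 for cold against standard elution and 0 to 1 for the interaction. In the K562 size-selection table it leaves no residual degree of freedom, so the values of each size pair are given with no test. The cause of these losses was not tested. With the replicate block, 2, 1, 0, 4 and 2 genes were called in the HEK293T comparisons and 0, 2, 6 and 0 in K562 for FastSelect, riboPools, cold elution and cold against standard elution, as without it; same-numbered libraries had correlated deviations of 0.0387 to 0.108 in HEK293T and -0.0308 to 0.0186 in K562, so the numbers are not shown to pair. Leaving out the 3 shallow Ribo-Zero Plus libraries, chosen after seeing the data, changed none of 15 calls. Depth limits HEK293T most, where MT-ND3 and MT-ND4L did not pass the filter; with no filter 3 of 7 were called with NEBNext, MT-ND3 among them.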

Other observations

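The 18 complex I assembly factors are nuclear-encoded proteins that build the complex but do not stay in it. With NEBNext in HEK293T edgeR called 0 of 9 tested (0 at an unadjusted p under 0.05, 0 by DESeq2), beside 3.24% of all genes. In K562 with NEBNext it called 0 of 7 tested (2 at an unadjusted p under 0.05, 0 by DESeq2), beside 2.16%. With the single Ribo-Zero Plus library 2 were called higher and 3 lower of 18, beside 20.3% of all genes tested, and DESeq2 called 0. Of 15 factors of mitochondrial gene expression, 13 were tested in K562 with NEBNext. The 1 called was SLIRP, an RNA-binding partner of LRPPRC (0.87 ± 0.24 on the log2 scale, edgeR adjusted p 0.0195). It rose, beside 1.62% of all genes tested, and DESeq2 called 0. With Ribo-Zero Plus 2 of these 15 were called by edgeR, a share below that of all genes (20.3%), and DESeq2 called 0.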
